A study of Mus musculus with 4 samples.

Results

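The Gadd45 and Btg/Tob families, small proteins that restrain growth, were followed in mouse embryonic fibroblasts through 17 probe sets of an Affymetrix Mouse Genome 430 2.0 array. A probe set is a group of short probes against 1 transcript. The members were all probe sets that the platform's annotation gives to Gadd45a, Gadd45b, Gadd45g, Btg1, Btg2, Btg3, Tob1 or Tob2, without regard to their signal. These 17, of 34945 probe sets with 1 gene symbol, covered 7 of the 8 genes, since the 1 probe set listed for Btg3 is shared with the locus Gm7334 and cannot be given to either. Of the 17, 15 had a mean signal of at least 67.95, the median over all probe sets, and entered the counts of differences. The same filter left 20326 probe sets in all.

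The 4 arrays held 1 sample each. Fibroblasts labelled Wip1+/+ and fibroblasts labelled Wip1-/- were taken without irradiation, labelled 0 h, or 4 h after 5 Gy of gamma radiation. Wip1 is a phosphatase encoded by Ppm1d that is known to act on p53 and on the stress kinase p38, and per the series text the arrays were meant for p53 target genes. The sources used here do not give strain, passage, embryos per culture or the kind of Ppm1d allele. With 1 array a group there was no test and no spread between cultures, so precision is limited by their number. Any effect of the 4 h in culture cannot be told apart from that of radiation.

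The labels were checked first. The 2 probe sets of Ppm1d read 375 and 317 in unirradiated and 364 and 463 in irradiated Wip1+/+ cells, against 504 and 219, then 482 and 561, on the arrays labelled Wip1-/-. Ppm1d was thus not lower on both of these arrays, and the position of its probes relative to the altered part of the gene is unknown here. The wording "labelled Wip1-/-" is therefore kept. All 10 fibroblast markers were measured, with Col1a1 at 30332 to 53682. Some were dim, among them Lum at 338.8 and 248.4 in Wip1+/+ and 96 and 164.1 on the others. Between unirradiated genotypes 6 of the 10 were higher on the array labelled Wip1-/- and 4 lower. Macrophage markers were lower on the arrays labelled Wip1-/-: the summed signal of the 11 measured of 12 was 9447 and 9481 in Wip1+/+ and 2509 and 2093 on the others, and all 11 were lower in both comparisons of the genotypes. The unirradiated array labelled Wip1-/- stood apart in 18 spike-in controls, transcripts added to every sample. Their log2 ratios had an SD of 0.44 to 0.47 in the 3 pairs of arrays with it and of 0.07 to 0.10 in the other 3. It enters the irradiation ratio of the cells labelled Wip1-/- and the ratio between unirradiated genotypes, and the second cannot be had without it. The irradiated array labelled Wip1-/- is therefore also set against unirradiated Wip1+/+ cells or, for the members, against the mean of the Wip1+/+ pair. Both of these ratios hold the genotype difference together with irradiation. The mean also holds the irradiated Wip1+/+ array, which takes off part of any change shared by the genotypes. Neither is thus an irradiation ratio of the cells labelled Wip1-/-.

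Gadd45 proteins bind and switch on the kinase Map3k4, which feeds the p38 and JNK stress kinases, and they also bind Pcna and the Cdk1-cyclin B complex that drives entry into mitosis. Gadd45a is a textbook target of p53 after DNA damage, whereas Gadd45b and Gadd45g are better known for induction by cytokines and other stresses. Btg and Tob proteins have a shared domain that binds the deadenylases Cnot7 and Cnot8 of the CCR4-NOT complex, by which messenger RNAs lose their poly(A) tails. Btg2 is also a known p53 target.

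Gadd45a and Btg2 were the genes at least 1.5-fold higher after irradiation in both genotypes. Gadd45a read 222 in unirradiated and 541.6 in irradiated Wip1+/+ cells. On the arrays labelled Wip1-/- it read 262.7 and 594.8. Both irradiated arrays lay above both unirradiated ones, and within each condition the genotypes lay at most 1.18-fold apart. The irradiated signal was 2.44-fold that of unirradiated cells in Wip1+/+ (log2 ratio 1.29) and 2.26-fold on the arrays labelled Wip1-/- (1.18). This was the single member at least 2-fold higher in either comparison, 1 of 15 in each, where 1.54% of all probe sets were so in Wip1+/+ and 6.66% on the arrays labelled Wip1-/-. A ratio as high as that of Gadd45a was reached by 0.620% and 4.37% of all probe sets. Only 1 probe set measures Gadd45a, so no other probes check its values. Without the array that stood apart, the irradiated array labelled Wip1-/- was 2.68-fold above unirradiated Wip1+/+ cells, a ratio reached by 0.866% of probe sets. It was 1.72-fold above the mean of the Wip1+/+ pair, under 2-fold, and that mean holds the irradiated Wip1+/+ array.

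Btg2 had 2 probe sets, which gave similar ratios. Probe set 1448272_at read 915.1 and then 1715 in Wip1+/+ cells, and 691.3 and then 1316.1 on the arrays labelled Wip1-/-. Probe set 1416250_at read 973.8 and then 1591.7, and 698.5 and then 1202.7. The irradiated array was the higher of the pair in each genotype, and each array labelled Wip1-/- was lower than its Wip1+/+ counterpart. The ratios to unirradiated cells were 1.87- and 1.63-fold in Wip1+/+ and 1.90- and 1.72-fold on the arrays labelled Wip1-/-. Ratios as high were found in 2.10% and 3.68% of all probe sets in Wip1+/+, and in 7.85% and 10.9% on the arrays labelled Wip1-/-. Among the 9794 probe sets with a mean signal of 500 or more, 1% passed 1.5-fold upward in Wip1+/+ and 0.776% downward. Of the 10 members that bright, 2 were higher by that much, both of Btg2, and 0 were lower. In the irradiated cells labelled Wip1-/-, Btg2 was 1.44- and 1.24-fold above unirradiated Wip1+/+ cells. Against the mean of the Wip1+/+ pair the log2 ratios were 0.07 and -0.05. The size of the Btg2 ratio on the arrays labelled Wip1-/- thus depended on the reference array. The direction of 1416250_at turned only against the mean, which holds the irradiated Wip1+/+ array, itself higher in Btg2.

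**Figure D1:**
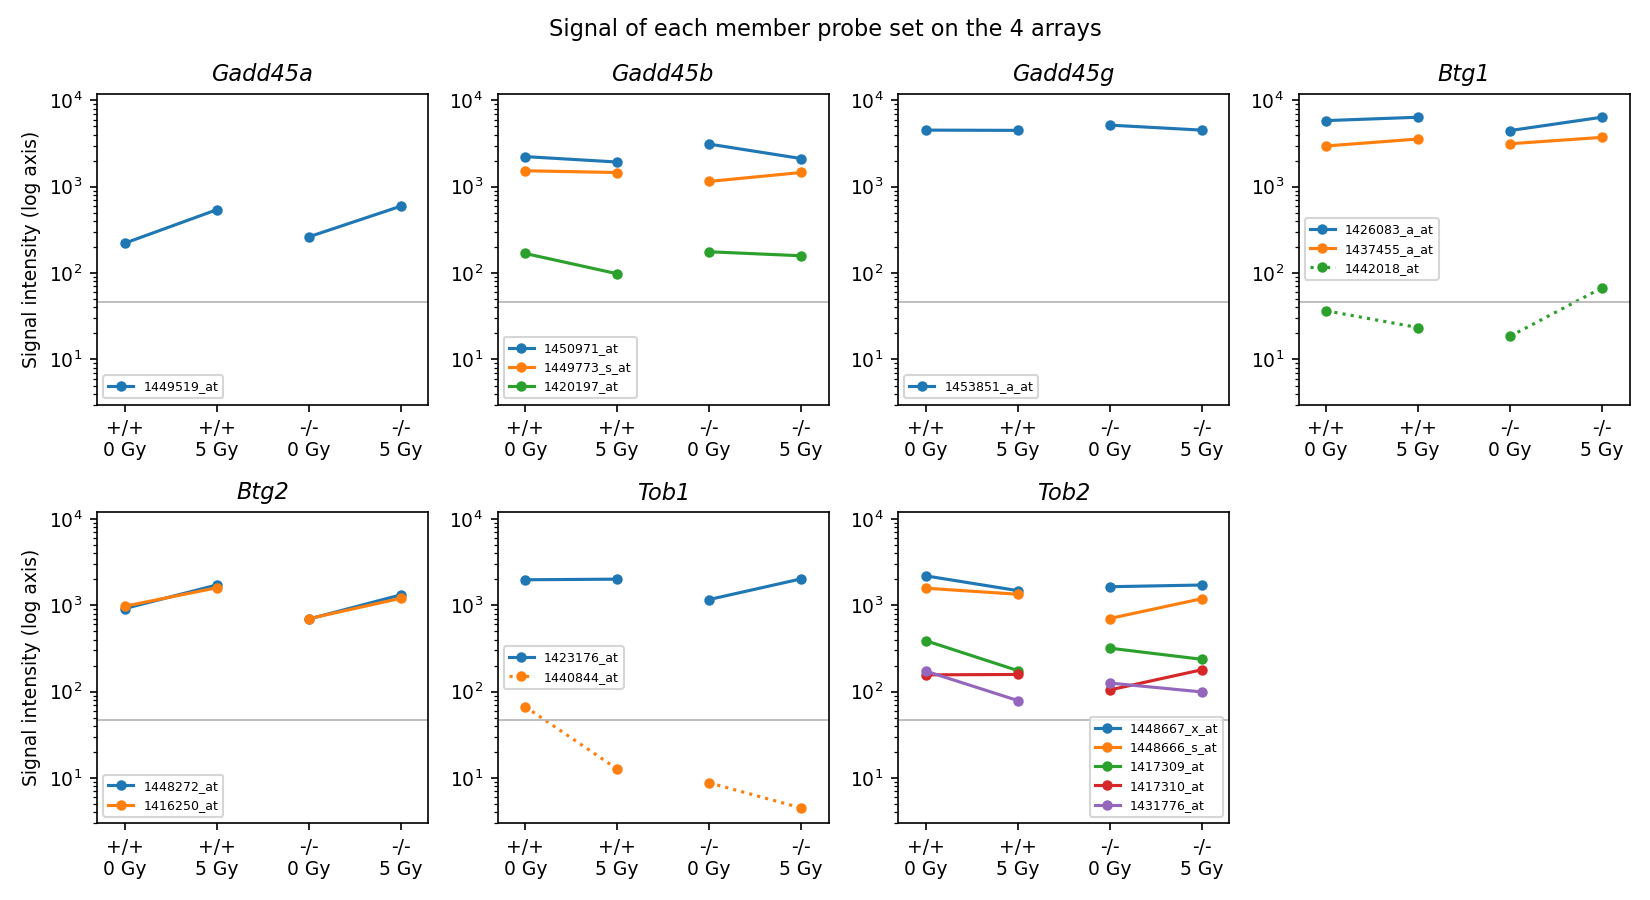
Signal intensity (log axis) of the 17 member probe sets, 1 panel per gene, on the 4 arrays: Wip1+/+ and labelled Wip1-/-, each at 0 and 5 Gy. Points are single arrays, lines join the arrays of one genotype, dotted lines mark the 2 probe sets under the filter and the grey line is the floor of 46.5; Gadd45a and both Btg2 probe sets slope upward in both genotypes, while the 5 probe sets of Tob2 run in different directions.

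The DNA before the start sites of these genes is shown because Gadd45a and Btg2 were higher after irradiation in both genotypes and Gadd45g, of the same family as Gadd45a, was not. The sequences are the 250 bases before the RefSeq start on build GRCm38.p6, which lists windows for all 8 genes, 9 in all. Capitals mark every match to the motifs searched on both strands: the octamer ATTTGCAT, the CCAAT box, the cAMP response element TGACGTCA, the AP-1 site TGANTCA, the GC box GGGCGG, the TATA box TATAAA, the FoxO site GTAAACA, the C/EBP-ATF core TGATGCAA and the p53 half-site. Gadd45a lies at chr6:67037408-67037657, minus strand, Btg2 at chr1:134079156-134079405, minus strand, and Gadd45g at chr13:51846425-51846674, plus strand.
Gadd45a: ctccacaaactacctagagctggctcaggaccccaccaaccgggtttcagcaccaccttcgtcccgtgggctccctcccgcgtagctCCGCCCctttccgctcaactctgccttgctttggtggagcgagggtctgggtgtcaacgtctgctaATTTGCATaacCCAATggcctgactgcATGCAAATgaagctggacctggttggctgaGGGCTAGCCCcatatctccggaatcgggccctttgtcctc
Btg2: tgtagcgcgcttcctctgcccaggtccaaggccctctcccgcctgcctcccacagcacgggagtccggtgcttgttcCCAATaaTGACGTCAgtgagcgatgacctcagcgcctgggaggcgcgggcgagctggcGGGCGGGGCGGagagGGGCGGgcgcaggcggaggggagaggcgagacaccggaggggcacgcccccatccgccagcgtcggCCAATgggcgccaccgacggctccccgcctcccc
Gadd45g: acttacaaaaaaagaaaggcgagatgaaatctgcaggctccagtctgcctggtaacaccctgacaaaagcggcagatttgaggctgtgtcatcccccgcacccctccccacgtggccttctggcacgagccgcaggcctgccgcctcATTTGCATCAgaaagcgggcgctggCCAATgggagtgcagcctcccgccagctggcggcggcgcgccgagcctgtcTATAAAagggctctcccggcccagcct

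In Gadd45a a CCAAT box, 86 bases before the start, stood between a pair of octamers that begin 97 and 70 bases before it. A p53 half-site begins 40 bases before the start, the 1 match among the 9 windows, and 7.13% of all 32851 promoter windows hold one. The octamer was in the windows of Gadd45a and Gadd45g and in 1.60% of all windows. In Gadd45g it overlaps the C/EBP-ATF core, found in 0.791% of windows, and a TATA box begins 27 bases before the start. TATA boxes were in 4 of the 9 windows, also those of Btg1, Gadd45b and Tob1, and in 12.4% of all. Btg2 alone among the members held the cAMP response element, 166 bases before its start, which 1.55% of windows hold, together with 3 GC boxes, the first 2 sharing 1 base. CCAAT boxes were in 8 of the 9 windows and 33.8% of all, GC boxes in 7 and 32.7%, and the FoxO site in that of Btg1 and 3.17% of all. The AP-1 site was in 0 of the 9 and 6.75% of all. These matches describe the letters of the windows, and binding was not measured.

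In Wip1+/+ cells the other Gadd45 genes were at or below their unirradiated level. Gadd45g read 4522.7 and then 4491.4 in Wip1+/+ cells, and 5165.2 and then 4521.8 on the arrays labelled Wip1-/-. Its 4 values lay within 1.15-fold of each other, the narrowest range among the members, with 3 of the arrays nearly equal and the unirradiated array labelled Wip1-/- highest. The sign of its Wip1+/+ ratio, a log2 value of -0.01, turned under quantile normalization and cyclic loess. On the arrays labelled Wip1-/- it was -0.19, and 0.00 against either Wip1+/+ reference.

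Gadd45b, known for induction by NF-kB and TGF-beta signals, was measured by 3 probe sets that disagreed. The brightest, 1450971_at, read 2231.7 and then 1931.8 in Wip1+/+, and 3114.7 and then 2117.8 on the arrays labelled Wip1-/-. Its unirradiated array labelled Wip1-/- was the highest of the 4. By contrast 1449773_s_at, whose name marks it as open to cross-hybridization, read 1530 and then 1461, and 1152.4 and then 1461.1, with that same array the lowest. The dimmest, 1420197_at, read 168.7 and then 98.3, and 176.6 and then 158.8, which made irradiated Wip1+/+ cells the low array. All 3 were below the unirradiated level in Wip1+/+, with log2 ratios of -0.21, -0.07 and -0.78. On the arrays labelled Wip1-/- they were -0.56, 0.34 and -0.15. The SD among the log2 ratios that a gene's probe sets gave, pooled over 5278 genes, was 0.37 in Wip1+/+ and 0.62 on the arrays labelled Wip1-/-, and 0.18 and 0.54 over the bright ones. The -0.78 of the dim probe set lay past the first SD in Wip1+/+, both ratios of 1450971_at lay slightly past that of bright probe sets, and those of 1449773_s_at passed neither. Without the array that stood apart, the irradiated array labelled Wip1-/- gave log2 ratios of -0.08, -0.07 and -0.09 to unirradiated Wip1+/+ cells and of 0.03, -0.03 and 0.30 to the mean of the Wip1+/+ pair. Both SDs cover differences between probes and not those between cultures.

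Among the Btg genes beside Btg2, Btg1, an early cloned member of the family, was slightly higher after irradiation by both of its bright probe sets. Probe set 1426083_a_at read 5826.2 and then 6375.8 in Wip1+/+, and 4472.2 and then 6382.3 on the arrays labelled Wip1-/-. Probe set 1437455_a_at read 2964.8 and then 3569.2, and 3144.5 and then 3727.9. The log2 ratios were 0.13 and 0.27 in Wip1+/+ and 0.51 and 0.25 on the others. In Wip1+/+ the second was past 0.18, the SD between bright probe sets of one gene, and the first was not. With the array that stood apart left out they were 0.13 and 0.33 against unirradiated Wip1+/+ cells, and 0.07 and 0.20 against the mean of the Wip1+/+ pair. The third probe set, 1442018_at, read 36.6, 23.4, 18.6 and 67.7 over the same arrays, under the floor of 46.5 on 3 of the 4, and was left out by the filter.

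Tob1, an antiproliferative protein that links messenger RNAs to deadenylation, read 1971.1 and then 2003.5 in Wip1+/+, and 1164.5 and then 2019.1 on the arrays labelled Wip1-/-. Only the unirradiated array labelled Wip1-/- was low, and the other three lay within a few percent of each other. The irradiation log2 ratio was 0.02 in Wip1+/+ and 0.79 on the arrays labelled Wip1-/-. With the array that stood apart left out, irradiated cells labelled Wip1-/- differed from unirradiated Wip1+/+ cells by a log2 ratio of 0.03. Another probe set of Tob1, 1440844_at, read 66.8, 12.7, 8.8 and 4.5, above the floor on 1 array alone.

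Tob2, the close relative of Tob1, was below its unirradiated level in Wip1+/+ cells by 4 of its 5 probe sets, by differing amounts. The 2 bright ones, 1448667_x_at and 1448666_s_at, read 2186.8 and then 1476.3, and 1574.6 and then 1340. Their names mark them as open to cross-hybridization. The dimmer 1417309_at read 388.7 and then 175.2, which is 2.22-fold lower, and 1431776_at read 172.8 and then 78.9, which is 2.19-fold lower. The remaining probe set, 1417310_at, read 156.3 and then 157.9, and the sign of its small ratio turned under brighter-median scaling, in which the arrays were set to one median of their brighter probe sets. The 2.22- and 2.19-fold values were the 2 of 15 members at least 2-fold lower in Wip1+/+, where 1.97% of all probe sets were. Both are dim, and the bright probe sets of Tob2 were 1.48- and 1.18-fold lower.

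The Tob2 probe sets split on the arrays labelled Wip1-/-. Probe set 1448667_x_at read 1637.8 and then 1713.6, 1448666_s_at read 701.8 and then 1188.5, and 1417310_at read 104.5 and then 178.9. Probe set 1417309_at read 318.3 and then 236.7, and 1431776_at read 125.7 and then 99.2. Of the 5, 3 were thus above and 2 below the unirradiated array, with log2 ratios from -0.43 to 0.78, and that of 1448667_x_at turned sign under brighter-median scaling. Set against unirradiated Wip1+/+ cells instead, 4 of the 5 were lower on the irradiated array labelled Wip1-/-, by 1.28- to 1.74-fold, and 1417310_at was 1.14-fold higher. The choice of the unirradiated array therefore turned the direction of 2 probe sets, 1448667_x_at and 1448666_s_at.

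**Figure D2:**
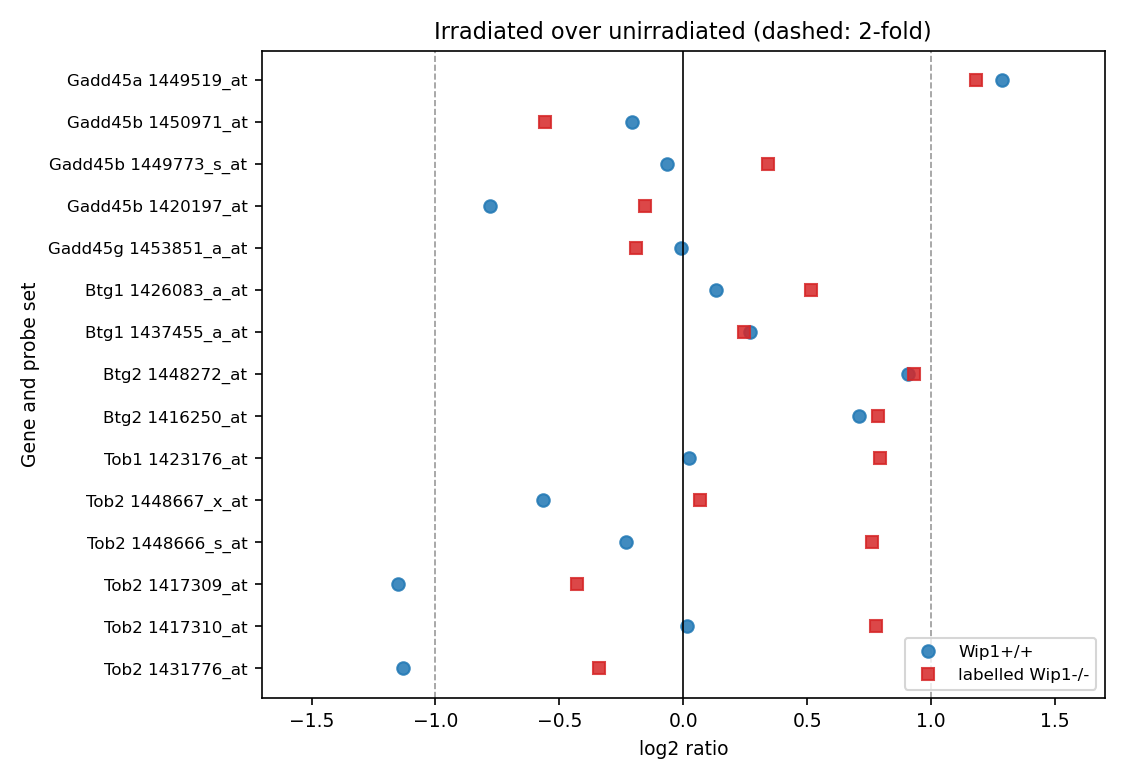
Log2 ratio of irradiated over unirradiated signal for the 15 member probe sets past the filter, in Wip1+/+ cells (circles) and cells labelled Wip1-/- (squares), 1 array each; dashed lines mark 2-fold. Gadd45a lies past 2-fold in both, the paired symbols of Btg2 nearly coincide, and the squares of Tob1 and Tob2 lie to the right of the circles.

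The members were split in direction in Wip1+/+ cells: 7 of 15 were higher and 8 lower, and the median log2 ratio was -0.01, against a median of 0.00 over all 20326 probe sets. Quantile normalization and cyclic loess each gave 8 higher, and brighter-median scaling gave 6. The 15 probe sets cover 7 genes, with 5 from Tob2 and 3 from Gadd45b, and are thus not independent. Over all genes, each by its brightest probe set, 52.3% were higher in Wip1+/+ and 47.4% on the arrays labelled Wip1-/-. In cells labelled Wip1-/-, 10 of 15 were higher after irradiation, and the median was 0.34 against -0.01 over all probe sets. With the array that stood apart left out and the mean of the Wip1+/+ pair as reference, that median was 0.02. No member was at least 2-fold lower there, where 4.81% of all probe sets were. Brighter-median scaling turned the split over all probe sets to 5.67% higher and 6.20% lower.

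Among the 9794 bright probe sets, 14% passed 1.5-fold upward and 9.98% downward on the arrays labelled Wip1-/-. Of the 10 bright members 4 were higher by that much, both probe sets of Btg2, that of Tob1 and 1448666_s_at of Tob2, and 0 were lower. The SD between bright probe sets of one gene was 0.54 there, against 0.18 in Wip1+/+ cells. The same ratio of Btg2 thus stood farther outside the spread of bright probe sets in Wip1+/+ than on the arrays labelled Wip1-/-.

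**Figure D3:**
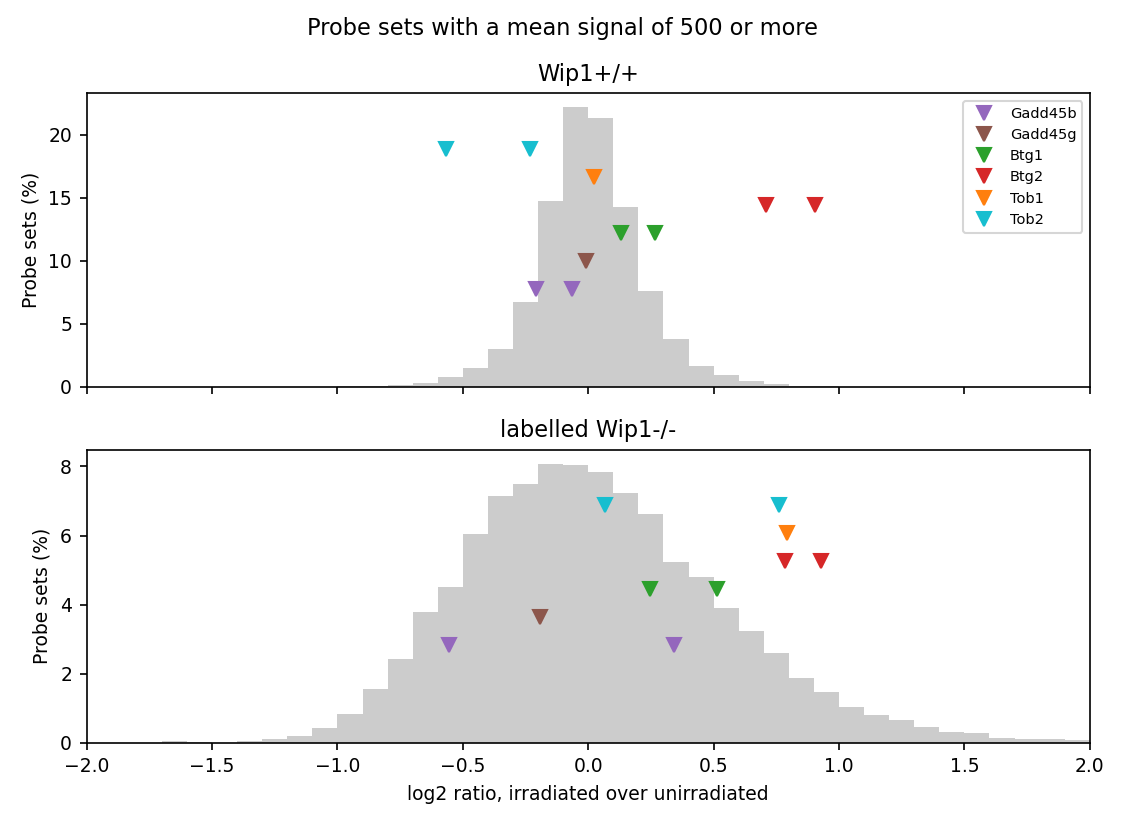
Distribution of the log2 irradiation ratio over the 9794 probe sets with a mean signal of 500 or more (grey bars, percent per bin of the log2 ratio), in Wip1+/+ cells above and cells labelled Wip1-/- below, with the 10 bright members as triangles whose height has no meaning. The Btg2 triangles lie at 0.71 and 0.91 in the narrow upper distribution and at 0.78 and 0.93 in the wide lower one.

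The difference between the irradiation log2 ratios, labelled Wip1-/- minus Wip1+/+, was near 0 for some members and not for others. It was -0.11 for Gadd45a, 0.02 and 0.08 for Btg2 and -0.18 for Gadd45g, against an SD between probe sets of 0.71. The 0.02 of Btg2 changed sign under cyclic loess and under brighter-median scaling. Tob1 had a difference of 0.77, and the 5 probe sets of Tob2 had differences of 0.63 to 0.99, all positive. The median was 0.41 over the 15 members and 0.00 over all probe sets, and 0 of the 15 reached 2-fold in either direction. All of these differences hold the array that stood apart. Whether its other values bear on those of Tob1 and Tob2 was not tested.

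Before irradiation most members were lower on the array labelled Wip1-/-. Of 15, 10 were lower, and the median log2 ratio was -0.40 against 0.02 over all probe sets. By brightest probe set, 46.4% of all genes were lower. All 5 probe sets of Tob2 were lower, with log2 ratios of -0.29 to -1.17. Tob1 had one of -0.76 and Btg2 -0.40 and -0.48. Probe set 1448666_s_at of Tob2, 2.24-fold lower, was the 1 member past 2-fold in that direction, where 7.72% of all probe sets were, and 0 were at least 2-fold higher, where 5.57% were. Of the 10 bright members, that probe set and Tob1 were at least 1.5-fold lower and 0 higher, against 14.8% and 11.6% of bright probe sets. Gadd45a was 1.18-fold and Gadd45g 1.14-fold higher. The SD between probe sets was 0.65 here, and 0.55 over bright ones, and among the 15 members only Tob1 and 1448666_s_at lay past the one that applies to them. Every value of this comparison rests on the array that stood apart.

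After irradiation the genotypes were closer. Of 15 members 12 were higher on the array labelled Wip1-/-, where 49.1% of all genes were by their brightest probe set. Yet the median log2 ratio was 0.06, against 0.01 over all probe sets, and quantile normalization and cyclic loess each left 10 higher. No member was 2-fold higher or lower, where 2.71% and 2.76% of all probe sets were. No bright member was past 1.5-fold in either direction, against 2.1% higher and 2.84% lower among bright probe sets. This comparison does not use the array that stood apart. Gadd45a was 1.10-fold higher on the array labelled Wip1-/-. Btg2 was 1.30- and 1.32-fold lower, with log2 ratios of -0.38 and -0.40, which 13.8% and 12.8% of all probe sets matched or passed, and the SD between bright probe sets of one gene was 0.23. Both Btg2 probe sets were lower at each time, in 2 of 2 comparisons of the genotypes. The summed macrophage markers were lower on both arrays labelled Wip1-/- as well, with a median log2 ratio over the 11 genes of -1.76 in each comparison, and their part in the Btg2 values was not tested. The farthest member was the dim 1420197_at of Gadd45b, 1.62-fold higher, while the brighter probe sets of Gadd45b had log2 ratios of 0.13 and 0.00.

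**Figure D4:**
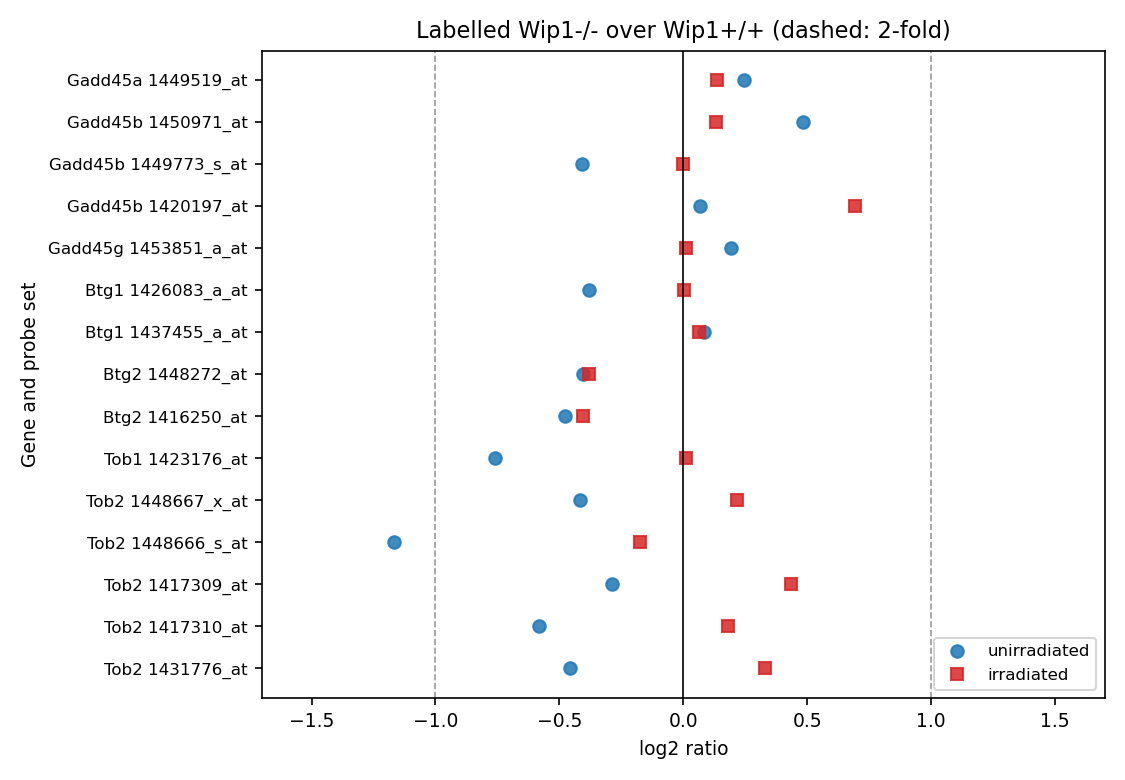
Log2 ratio of the array labelled Wip1-/- over Wip1+/+ for the 15 member probe sets past the filter, unirradiated (circles) and irradiated (squares), 1 array each; dashed lines mark 2-fold. The circles of Tob1, Tob2 and Btg2 lie left of 0, at -0.29 or below, and of the squares only those of Btg2 and 1 probe set of Tob2 remain left of 0.

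The kinases downstream of Gadd45 did not all lie on one side. Of 12 listed genes of the p38 and JNK pathways 11 were measured by their brightest probe set. After irradiation of Wip1+/+ cells 7 were higher and 4 lower, where 52.3% of all 11546 genes were higher. Their median log2 ratio was 0.04 against 0.01 over all genes, and 0 passed 2-fold. In cells labelled Wip1-/- the median was -0.29 against -0.03, and 5 were higher, where 47.4% of all genes were. Against unirradiated Wip1+/+ cells the median was -0.09 against 0.01, with 3 higher, where 51.7% of all genes were. Map3k4, the kinase that Gadd45 proteins bind, read 836.5 and then 687.5 in Wip1+/+, and 454.8 and then 880.3 on the arrays labelled Wip1-/-. Its 3 other probe sets went the opposite way in Wip1+/+, with log2 ratios of 0.08 to 0.40. On the arrays labelled Wip1-/- they had -0.33 to 0.03, against 0.95 for the brightest. Mapk14, p38 alpha, read 2004.7 and then 2316.8, and 1795.3 and then 2481.0. Its 3 other probe sets had log2 ratios of -0.05 to 1.25 in Wip1+/+ and of -0.57 to 0.40 on the arrays labelled Wip1-/-. Between genotypes Mapk12 (p38 gamma) was 2.16-fold higher on the unirradiated array labelled Wip1-/-, and Mapk13 (p38 delta) 2.31-fold lower on the irradiated one, each by 1 probe set. Over all genes 5.14% and 2.94% were past 2-fold in those directions.

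Of the other Gadd45 partners, 3 of 5 were measured. Cdk1, the mitotic kinase, read 3220.3 and then 2782.1 in Wip1+/+, and 3421.6 and then 3001.0 on the arrays labelled Wip1-/-. Pcna, the sliding clamp of replication, read 8600.3 and then 7747.0, and 6502.6 and then 6903.6. Cdkn1a, the CDK inhibitor p21, was higher after irradiation, at 12735 and then 16318.2, and 8920.3 and then 15475.9. Its other probe set had log2 ratios of -0.02 and 0.20. Against unirradiated Wip1+/+ cells the irradiated array labelled Wip1-/- was 1.22-fold higher by the brightest probe set.

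The CCR4-NOT and poly(A) partners of Btg and Tob were close to the background in Wip1+/+ cells. Of 13 measured genes of 14, 7 were higher, where 52.3% of all genes were, and the median log2 ratio was 0.04 against 0.01. Pan2, a deadenylase subunit, was 2.14-fold higher, from 65.4 to 139.8, and 1.58% of all genes were past 2-fold upward. Cnot7 and Cnot8, the deadenylases that Btg and Tob proteins bind, had log2 ratios of 0.04 and 0.13. In cells labelled Wip1-/- 10 of the 13 were lower after irradiation, where 52.3% of all genes were, and the median was -0.36 against -0.03. Against unirradiated Wip1+/+ cells, without the array that stood apart, 10 were instead higher and the median was 0.06. Over all genes 51.7% were higher there and the median was 0.01. Before irradiation 10 of the 13 were higher on the array labelled Wip1-/-, where 53.5% of all genes were, with a median of 0.32 against 0.05. Cnot11, Pan2 and Pan3 were 2.06-, 2.21- and 2.48-fold higher, 3 of 13 where 5.14% of all genes were past 2-fold. The other probe sets of Pan3 had log2 ratios of -0.80 and 0.21 there, and those of Cnot11 had 0.01 and 0.78, all under 2-fold. After irradiation the median was 0.03, in the comparison without the array that stood apart.

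Further partners of Btg and Tob, among them Smad and Id proteins of BMP signalling that Tob proteins are known to restrain, were lower for 9 of 11 genes in Wip1+/+ cells and 8 of 11 on the arrays labelled Wip1-/-, where 47.4% and 52.3% of all genes were. The median log2 ratios were -0.09 and -0.18, against 0.01 and -0.03 over all genes. Without the array that stood apart, 6 of 11 were lower on the irradiated array labelled Wip1-/- than in unirradiated Wip1+/+ cells, with -0.10 as the median. Over all genes 48.1% were lower there. Id1, an inhibitor of differentiation factors, read 2159.1 and then 1385.3 in Wip1+/+, and 1458.1 and then 1129.4 on the others. Id2 read 2092.0 and then 1455.1, and 1696.0 and then 912.5. Id3 read 5637.9 and then 4281.9, and 5763.3 and then 4366.0. Each Id gene was thus lower on the irradiated array in both genotypes, by 1.29- to 1.86-fold by its brightest probe set. The other probe set of Id2 was farther down, with log2 ratios of -1.36 in Wip1+/+ and -0.99 on the arrays labelled Wip1-/-. Smad6, an inhibitory Smad, was 2.38-fold lower on the unirradiated array labelled Wip1-/-, by 1 probe set. Over all genes 6.83% were past 2-fold in that direction, and the value rests on the array that stood apart.

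Transcription factors known to act on these families were measured for 9 of 11 genes, and Trp53 and Nfkb1 were not among them. Egr1, an immediate early factor, read 1617.1 and then 3700.7 in Wip1+/+, and 2338.8 and then 2951.9 on the arrays labelled Wip1-/-. It was the 1 factor past 2-fold in any comparison, at 2.29-fold higher in Wip1+/+, where 1.58% of all genes were past 2-fold upward. The list's median log2 ratio was 0.18 in Wip1+/+, where 7 of 9 were higher against 52.3% of all genes, and 0.11 on the arrays labelled Wip1-/-, where 5 were against 47.4%. Against unirradiated Wip1+/+ cells the latter median was 0.31.

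Other genes named for growth arrest or DNA damage did not share the Gadd45a pattern as a list. Of 8 measured, 4 were higher in Wip1+/+ and 5 on the arrays labelled Wip1-/-, where 52.3% and 47.4% of all genes were. The median log2 ratios were 0.09 and 0.13, with 0 past 2-fold. Without the array that stood apart the second median was -0.01. Ddit3, also called Gadd153, a factor of the unfolded protein response, read 1883.4 and then 2452.9, and 1768.5 and then 2423.0. Gas1, a growth arrest gene, read 779.3 and then 450.6, and 823.3 and then 428.8, while its other probe set had log2 ratios of 0.44 and -0.13.

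Among 14 p53 targets of arrest and feedback, 11 were higher in each genotype, and the median log2 ratios were 0.31 in Wip1+/+ and 0.30 on the arrays labelled Wip1-/-, where 52.3% and 47.4% of all genes were higher. Against unirradiated Wip1+/+ cells, 10 of 14 were higher on the irradiated array labelled Wip1-/-, where 51.7% of all genes were, and the median was 0.16. None of them passed 2-fold in Wip1+/+, and Ccng1, Rprm and Trp53inp1 did on the arrays labelled Wip1-/-, at 2.29-, 2.49- and 2.19-fold, where 5.70% of all genes were. These 3 values rest on the array that stood apart. Against unirradiated Wip1+/+ cells Ccng1 was 1.10-fold higher, Rprm 1.18-fold lower and Trp53inp1 1.58-fold higher, so 0 of the 3 stayed past 2-fold. After irradiation 12 of the 14 were lower on the array labelled Wip1-/- than in Wip1+/+, with a median of -0.10. Over all genes 50.6% were lower and the median was 0.00. Perp and Sfn, which are typical of epithelia, were 2.50- and 2.19-fold lower, where 2.94% of all genes were that far lower. Sfn was dim, at 134 in Wip1+/+ and 61.1 on the array labelled Wip1-/-. The 5 measured epithelial markers were instead all higher on that array, with a median log2 ratio of 0.56. In the same comparison Cdkn1a, the CDK inhibitor p21, had a log2 ratio of -0.08 and 0.95 by its other probe set.

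Likeness of pattern was measured as the root mean square difference of log2 signal over the 4 arrays, after each gene was centred on its mean, among 10765 other genes above the floor on every array. The genes most like Gadd45a were Sgsm1, Pla1a and Msl3l2, at 0.10, 0.11 and 0.15. Sgsm1 read 54.8 and then 111.9 in Wip1+/+, and 64.3 and then 140.5 on the arrays labelled Wip1-/-. Those most like Btg2 were Snapc1, Lama4 and Abat, at 0.08, 0.08 and 0.09. Snapc1 read 561 and then 927.7, and 418.2 and then 810.9. Trp53inp1, a p53-induced regulator of cell death and autophagy picked here after its values were seen, ranked 8 for Btg2 at 0.09. Gadd45a itself ranked 987 for Btg2, at 0.33, and Btg2 ranked 92 for Gadd45a. Gadd45a and Btg2, both higher after irradiation, therefore differed in how the genotypes stood. Btg2 was lower and Gadd45a slightly higher on the arrays labelled Wip1-/-. The Gadd45a ratios, log2 values of 0.24 before and 0.14 after irradiation, lay within the SDs between probe sets of 0.65 and 0.41. Those of Btg2 lay within the SD of bright probe sets, 0.55, before irradiation and past 0.23 after it. The likeness measure uses all 4 arrays, so it holds the array that stood apart.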

How the data were processed

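The deposited values are linear signal intensity for each probe set and array, made with GCOS, the Affymetrix software, per the submitters' processing notes. The sources used here do not give its version or background step. Each deposited column had a mean of 500 after 2% was trimmed at each end, so no further scaling was applied.

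Of 45101 probe sets, 64 controls, 932 with several gene symbols and 9160 without a listed gene were left out, and 34945 remained. Signals under 46.5, the 40th percentile, were set to that floor before log2. Probe sets with a mean of at least 67.95 were compared as log2 ratios of 2 arrays, and counted past 2-fold, or past 1.5-fold at a mean of 500 or more. With 1 array a group no p-value was computed. Lists used each gene's brightest probe set. The 7 pathway lists and 8 cell type lists came from textbook knowledge, and the members and lists were chosen with earlier results of these data known. Every member probe set was described. Of each pathway list, genes past 2-fold in a comparison, or else the 2 largest ratios, were to be named, with the 3 genes most like Gadd45a and Btg2. Some are not printed, and examples from a list that lie outside this rule were picked with their values known. The summed signals of the endothelial, epithelial, skeletal muscle, neural and adipocyte markers were 347 to 462, 1557 to 2177, 8724 to 10237, 1916 to 2244 and 415 to 955 over the arrays, and 0 of 4 erythroid markers passed the filter. Symbols were checked against RefSeq (GRCm38.p6), and 0 were changed.

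In all, 12 alternatives were run, and another reference array, for the members and the lists, was added after the data were seen. The code was tested on simulated data. R 4.3.3 with limma 3.58.1 gave the normalization alternatives, and Python 3.11.15 with numpy 2.4.6 and pandas 2.3.3 all else.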

Additional observations from a re-analysis of the deposited data

Results flagged for a closer look

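The probe set 1448666_s_at of Tob2 had opposite irradiation ratios in the genotypes. Its log2 ratio was -0.23 in Wip1+/+ cells and 0.76 on the arrays labelled Wip1-/-, a difference of 0.993 that passed the SD of 0.71 between probe sets of one gene. The difference was not tested, since each group held 1 array. It uses the unirradiated array labelled Wip1-/-, and against unirradiated Wip1+/+ cells the irradiated array labelled Wip1-/- had a log2 ratio of -0.41.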

How the results depend on the processing

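No paired analysis was possible because each group held 1 array. Of 685 values of single member probe sets under an alternative, 679 moved by less than the SD between probe sets of one gene, and 0 that were past 2-fold turned sign. The 6 that moved more were ratios of Btg2, Tob1 and Tob2 on the arrays labelled Wip1-/- with another reference array. The filter, floor and probe set choices leave the ratio of a single member probe set unchanged. Most of the 685 values could therefore not move, and only the scalings and the other references could move one. The mean of the Wip1+/+ pair holds an irradiated array, so it is not an unirradiated reference. Against the mean of both Wip1+/+ arrays, the irradiated array labelled Wip1-/- had 0 members past 2-fold higher. Counts past 2-fold are small, and other choices changed them. In Wip1+/+ cells a filter at the 67th percentile left 1 member lower, a mean of 500 left 0 higher and 0 lower, the brightest probe set of each gene gave 0 lower, and 1.5-fold in place of 2-fold gave 3 higher and 3 lower. On the arrays labelled Wip1-/-, a mean of 500 left 0 higher and 1.5-fold gave 6. For unirradiated genotypes, leaving out probe sets named _x_at or _s_at gave 0 lower, as did the brightest probe set of each gene, and 1.5-fold gave 2. For irradiated genotypes 1.5-fold gave 1 higher. The share of all filtered probe sets past 1.5-fold was not computed, so these 1.5-fold counts have no matching background. Among bright probe sets 1% were that much higher after irradiation and 0.776% lower in Wip1+/+. On the arrays labelled Wip1-/- 14% were higher and 9.98% lower. The median over the members on the arrays labelled Wip1-/- went from 0.34 to 0.02 with the mean of the Wip1+/+ pair as reference. Of 75 pairs of member and comparison, 7 turned sign under another scaling. Gadd45a, with a mean signal under 500, has 1 probe set, and the dim probe sets of Tob2 and Gadd45b lie nearest the floor.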
